A study of Mus musculus with 6 samples.

Results

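The genes described here are 10 that mark stem cells of the intestinal crypt or respond to Wnt signalling there: Lgr5, Ascl2, Olfm4, Smoc2, Axin2, Rnf43, Znrf3, Sox9, Lrig1 and Ephb2. They were chosen by gene symbol, and all 10 were present among the 18477 genes of the deposited table. Of these, 9 passed the filter on low counts and were among the 14579 genes tested. Olfm4 did not pass. Colon tissue came from male C57BL/6 mice that were 6 to 8 weeks old. The DSS group (n = 3 libraries) drank 2% dextran sulfate sodium, a chemical that injures the colon epithelium, for 7 days and was gavaged with PBS for 14 days. The DSS+BV group (n = 3 libraries) drank the same DSS and was gavaged with the gut bacterium *B. vulgatus* for the same 14 days. Both groups therefore carry the injury, and no library from mice without DSS was analysed here. The labels number the libraries without saying that each is a separate mouse, so p-values measure the spread between these samples, which may be technical.

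Epithelial cells of the colon are renewed from stem cells at the crypt base, and Wnt signalling keeps these cells dividing. Wnt ligands act with R-spondins, which bind receptors of the Lgr family and remove the ubiquitin ligases that would clear the Wnt receptor from the cell surface. β-catenin then switches on target genes, among them feedback inhibitors of the same pathway, and after injury the crypt base is depleted and rebuilt.

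Library totals were 15293276 to 17254343 expected counts, and TMM scaling factors were 0.970 to 1.04. Normalised expression is given as CPM, the count scaled to a common library total with TMM factors. The libraries also differed within groups. Summed CPM of 7 B and T cell genes were high in DSS 1 (121.7), DSS 3 (219.5) and DSS+BV 1 (181.5) and low in DSS 2 (17.8), DSS+BV 2 (12.6) and DSS+BV 3 (16.6). Summed CPM of 4 distal Hox genes, which mark the far end of the colon, were between 58.5 and 328.1 in the other libraries and 0.253 in DSS+BV 3, where Hoxb13 was at 0. Epithelial marker genes were present in all libraries, with summed CPM of 10052 to 10792 in the DSS group and 12680 to 16260 in the DSS+BV group. Colon tissue is a mixture, and fewer cells of a type and less RNA per cell cannot be told apart in these libraries.

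The quasi-likelihood test of edgeR called 0 of the 9 tested genes. A gene was called where its Benjamini-Hochberg adjusted p was below 0.05 and its log2 fold change was beyond 1 in size. At an unadjusted p-value under 0.05, 1 was higher, Lgr5, and 0 were lower in the DSS+BV group, against 3.4% higher and 9.12% lower over all tested genes. DESeq2 called 1 of them, Lgr5, as higher. Of the 14579 genes tested with edgeR, 0.0892% were called lower and 0% higher. Of the 16155 genes to which DESeq2 gave an adjusted p, 1.73% were called lower and 0.279% higher. Log2 fold changes, DSS+BV against DSS, were above 0 for 7 of the 9 genes and below 0 for Smoc2 and Lrig1. Their median was 0.34, against -0.01 over all tested genes, of which 7078 were above 0. With 1 library left out in turn the median was 0.15 (without DSS 3) to 0.61 (without DSS 1). In none of the 9 genes did all 3 libraries of a group lie on the same side of the other group. Over all tested genes, 11.3% had all DSS+BV libraries below all DSS libraries and 6.37% had them above.

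**Figure D1:**
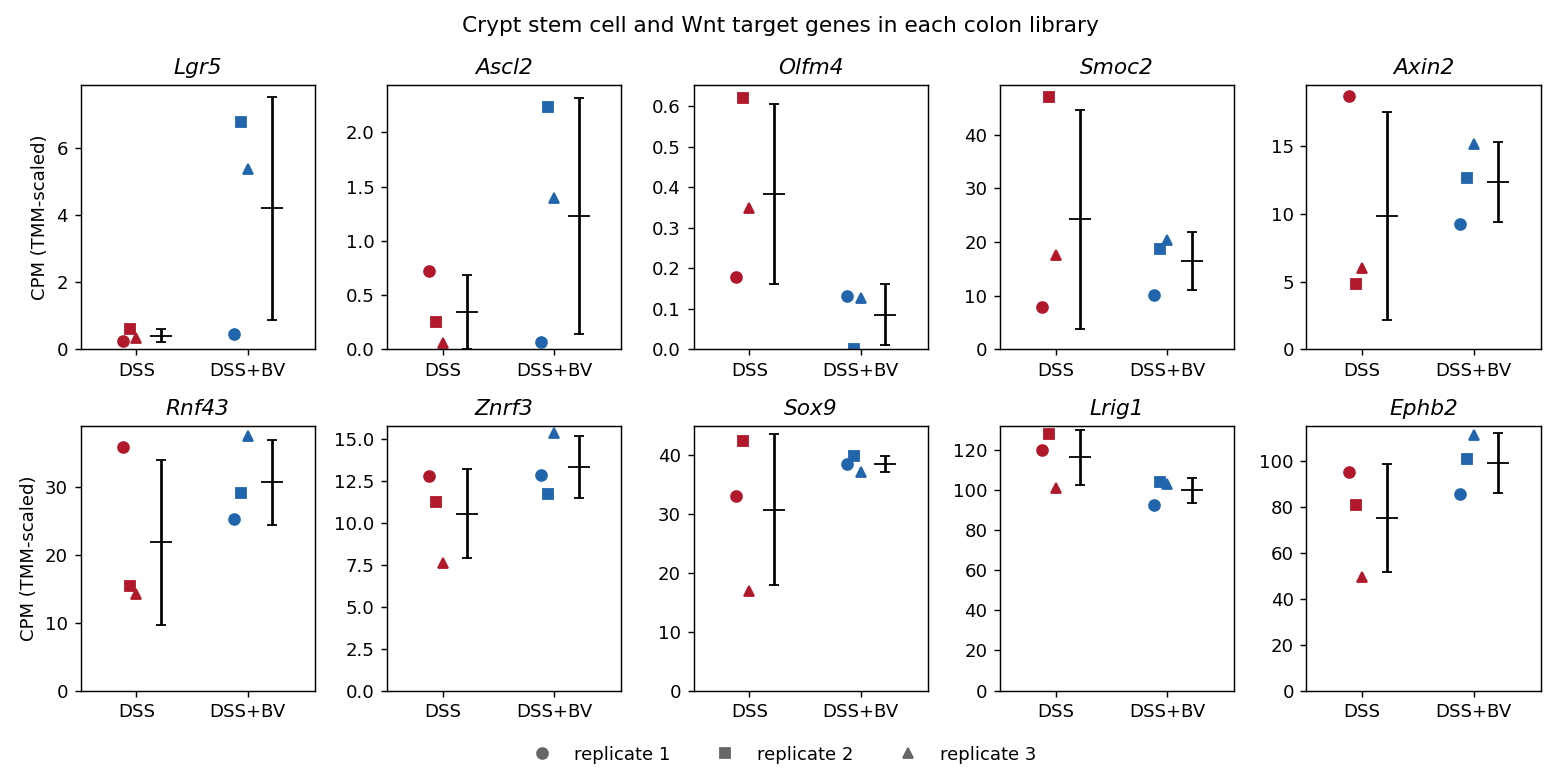
Each panel plots a gene, with normalised expression in CPM on a linear vertical axis from 0 and the DSS and DSS+BV groups on the horizontal axis. Points are libraries, their shape gives the replicate number, and the bars are the mean ± SD of 3 libraries. Lgr5 and Ascl2 are high in DSS+BV 2 and DSS+BV 3 only, Axin2 and Rnf43 are spread widely in the DSS group, and Lrig1 varies least.

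Lgr5, the R-spondin receptor that defines the crypt base stem cell, was the member with the largest difference. It is encoded on the minus strand at chr10:115450314-115587780 (GRCm38.p6). Expected counts were 4, 10 and 6 across DSS 1, 2 and 3, and 7, 106 and 85 across DSS+BV 1, 2 and 3. These correspond to 0.240, 0.622 and 0.349 CPM across the DSS group and 0.462, 6.75 and 5.37 CPM across the DSS+BV group. DSS+BV 2 and DSS+BV 3 were far above all other libraries, while DSS+BV 1 lay within the range of the DSS group, so the groups overlapped. Exact 95% Poisson intervals, which cover counting error only, were 86.8 to 128.2 counts in DSS+BV 2 and 2.81 to 14.4 counts in DSS+BV 1. The difference between those libraries of the same group was therefore larger than counting error. Group means were 0.404 ± 0.197 and 4.2 ± 3.31 CPM (SD, n = 3 each). The estimated log2 fold change was 3.36 with a standard error of 0.963 (95% interval 1.06 to 5.66), with an adjusted p of 0.318 with edgeR and 0.0151 with DESeq2. With 1 library left out it was 2.84 (without DSS+BV 2) to 3.90 (without DSS+BV 1). The adjusted p-values of those edgeR fits ran from 0.0838 (without DSS+BV 1) to 0.903 (without DSS+BV 2).

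Ascl2, a transcription factor that specifies the stem cell state and is itself a Wnt target, was also highest in DSS+BV 2 and DSS+BV 3. It lies on the minus strand at chr7:142966822-142969264. Expected counts were 12, 4 and 1 across DSS 1, 2 and 3, and 1, 35 and 22 across DSS+BV 1, 2 and 3, or 0.719, 0.249 and 0.0582 CPM and 0.0660, 2.23 and 1.39 CPM. DSS+BV 1 was as low as DSS 3, and the groups overlapped. The fold change on the log2 scale was 1.83 with a standard error of 1.14 (95% interval -0.89 to 4.55, edgeR adjusted p = 0.545). It ran from 1.09 (without DSS+BV 2) to 2.96 (without DSS 1) when a library was left out.

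Olfm4, a secreted glycoprotein that marks stem cells of the small intestine in mice and is scarce in the mouse colon, was near the detection limit. It lies on the plus strand at chr14:80000302-80023141, and its exons share bases with Gm6999 on the same strand, so reads of the pair cannot be told apart with certainty. Expected counts were 3, 10 and 6 in the DSS group and 2, 0 and 2 in the DSS+BV group. All DSS+BV libraries were below all DSS libraries, but the upper limit for 0 counts, 3.69 (exact 95% Poisson interval), is above the 3 counts of DSS 1. No fold change is given, and the DESeq2 adjusted p was 0.5.

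Smoc2, a secreted matrix protein that marks crypt base stem cells and is also made by stromal cells, lies on the plus strand at chr17:14279490-14404790. It was at 7.96, 47.1 and 17.6 CPM across DSS 1, 2 and 3 and at 10.2, 18.7 and 20.4 CPM across DSS+BV 1, 2 and 3. DSS 2 alone was above all DSS+BV libraries, and DSS 1 was below them all. Between the groups the log2 fold change was -0.56 with a standard error of 0.627 (95% interval -2.06 to 0.93, edgeR adjusted p = 0.734), and it was 0.36 without DSS 2.

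Axin2, a scaffold of the β-catenin destruction complex and a feedback inhibitor of Wnt signalling, differed more within the DSS group than between groups. The gene lies on the plus strand at chr11:108917828-108950783, and its exons share bases with the antisense gene Gm11670. It was at 18.7, 4.85 and 6.0 CPM across DSS 1, 2 and 3 and at 9.23, 12.6 and 15.2 CPM across DSS+BV 1, 2 and 3. DSS 1 was the highest of all libraries and DSS 2 the lowest, 3.85-fold apart. The log2 fold change was 0.33 with a standard error of 0.535 (95% interval -0.95 to 1.6, edgeR adjusted p = 0.827). It was 0.03 without DSS 2 and 1.18 without DSS 1.

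Rnf43 and Znrf3 encode the membrane ubiquitin ligases that clear Wnt receptors from the cell surface, and Rnf43 is a Wnt target in the crypt base. Rnf43, on the plus strand at chr11:87663087-87735539, was at 35.9, 15.4 and 14.3 CPM across DSS 1, 2 and 3 and at 25.4, 29.1 and 37.6 CPM across DSS+BV 1, 2 and 3. As with Axin2, DSS 1 was high, DSS 2 and DSS 3 were the lowest, and the DSS+BV libraries ran from between these levels to just above DSS 1. The estimated log2 fold change was 0.49 with a standard error of 0.386 (95% interval -0.43 to 1.41, edgeR adjusted p = 0.630), and it was 1.05 without DSS 1. Znrf3, on the minus strand at chr11:5276329-5444847, was at 12.8, 11.3 and 7.63 CPM across DSS 1, 2 and 3 and at 12.9, 11.7 and 15.4 CPM across DSS+BV 1, 2 and 3. Only DSS 3 and DSS+BV 3 left the narrow range of the others, on opposite sides. The fold change on the log2 scale was 0.34 with a standard error of 0.251 (95% interval -0.26 to 0.94, edgeR adjusted p = 0.613).

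Sox9, a transcription factor of crypt stem and progenitor cells, lies on the plus strand at chr11:112782210-112787757. It was at 32.9, 42.3 and 16.9 CPM across DSS 1, 2 and 3 and at 38.4, 39.8 and 37.0 CPM across DSS+BV 1, 2 and 3. The DSS+BV libraries were close together, and DSS 3 was the only library well below them. The SD was 12.8 CPM across the DSS group and 1.38 CPM across the DSS+BV group (n = 3 each), a difference in spread that was not tested. Between the groups the log2 fold change was 0.32 with a standard error of 0.315 (95% interval -0.43 to 1.08, edgeR adjusted p = 0.695), and it was 0.03 without DSS 3.

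Lrig1, a membrane protein that restrains growth factor receptors and marks crypt stem cells, varied least of the members. It lies on the minus strand at chr6:94604529-94700298, and its exons share bases with Slc25a26 on the opposite strand. Whether reads were counted by strand is not stated, so reads of Lrig1 and Axin2 may include some of their opposite-strand partners. It was at 119.8, 127.6 and 101.1 CPM across DSS 1, 2 and 3 and at 92.3, 104.0 and 102.8 CPM across DSS+BV 1, 2 and 3. The highest library was 1.38 times the lowest, and DSS 3 lay inside the range of the DSS+BV group. The log2 fold change was -0.22 with a standard error of 0.137 (95% interval -0.55 to 0.11, edgeR adjusted p = 0.544), an interval that leaves out a change of more than 0.55 in either direction on the log2 scale.

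Ephb2, a Wnt target and the receptor that keeps undifferentiated cells at the crypt base, lies on the minus strand at chr4:136647536-136836326. It was at 95.3, 80.7 and 49.6 CPM across DSS 1, 2 and 3 and at 85.4, 100.7 and 111.0 CPM across DSS+BV 1, 2 and 3. DSS 3 was lowest, and DSS 1 was above DSS+BV 1, so the groups overlapped. Between the groups the log2 fold change was 0.40 with a standard error of 0.251 (95% interval -0.20 to 1.0, edgeR adjusted p = 0.549), and it was 0.17 without DSS 3.

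**Figure D2:**
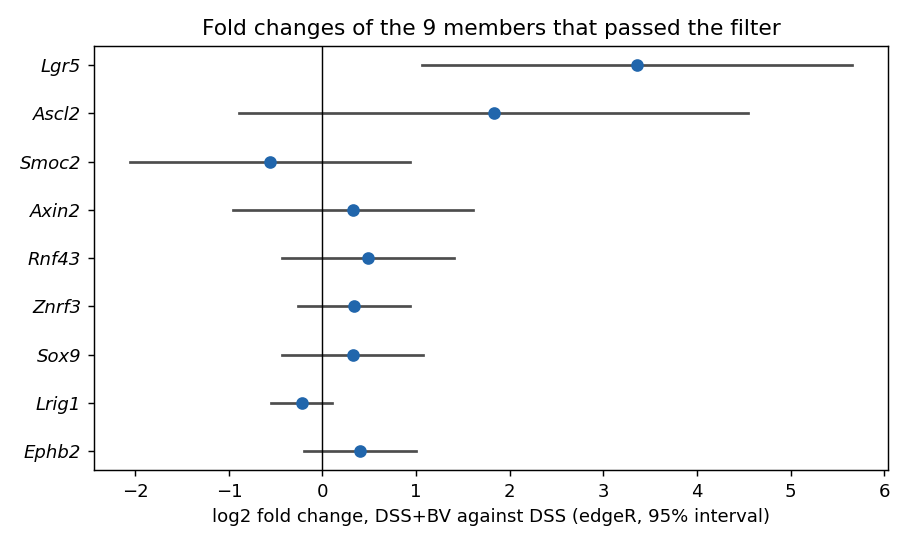
The horizontal axis gives the log2 fold change from edgeR, DSS+BV against DSS, for the 9 tested genes. Points are estimates and lines are 95% intervals that are not adjusted for the number of genes tested. The interval of Lgr5 (1.06 to 5.66) is the only one that leaves out 0, and that of Lrig1 (-0.55 to 0.11) is the narrowest.

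Levels can be compared between genes only per length. Per kilobase of the longest annotated transcript, the mean over the 6 libraries was 21.8 CPM for Lrig1, 8.36 for Sox9, 7.99 for Ephb2, 6.10 for Rnf43 and 5.12 for Smoc2. It was 2.60 for Axin2 and 1.89 for Znrf3. Ascl2 (0.489), Lgr5 (0.480) and Olfm4 (0.0838) were the lowest. By transcript length, Lrig1 was above every other member in every library, at 18.6 CPM per kilobase or more. The ranges of Sox9, Ephb2, Rnf43 and Smoc2 overlapped, as did those of Axin2 and Znrf3, and those of Ascl2 and Lgr5. Ranges also overlapped across these sets. Axin2 in DSS 1 (4.39) was above Rnf43 (3.32) and Sox9 (4.10) in DSS 3. Lgr5 (1.41) and Ascl2 (1.39) in DSS+BV 2 were above Axin2 in DSS 2 (1.14) and Znrf3 in DSS 3 (1.21). Within DSS+BV 2, where it was highest, Lgr5 was below Znrf3 (1.86). With the coding length in place of the transcript length, the mean of Lrig1 (33.0) was still the highest, but Ephb2 was above it in DSS+BV 1 (28.8 against 28.2), DSS+BV 2 (34.0 against 31.8) and DSS+BV 3 (37.5 against 31.4). By that length Ephb2 (mean 29.4) also came before Sox9 (22.7), and Smoc2 (14.8) before Rnf43 (11.2).

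**Figure D3:**
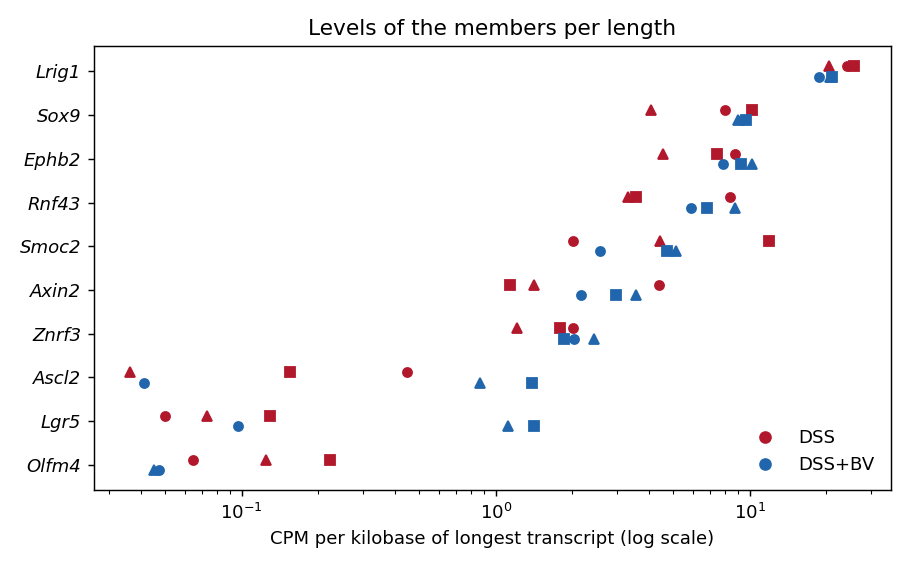
The horizontal axis, on a log scale, gives CPM per kilobase of the longest transcript for each member. Points are libraries, with replicates 1, 2 and 3 as circles, squares and triangles. Olfm4 in DSS+BV 2 is at 0 and is not drawn. Lrig1 lies above all others. Ascl2, Lgr5 and Olfm4 have the lowest means, with DSS+BV 2 and DSS+BV 3 raised for Ascl2 and Lgr5.

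The members followed the libraries in different ways. To describe this, log2 CPM of each tested gene was centred on its own mean over the 6 libraries, and the root mean square difference between the centred values of a pair of genes was taken as their distance. The pattern closest to Lgr5 was that of Car1, a carbonic anhydrase of surface colonocytes, at a distance of 0.242. Car1 was at 825, 1041 and 939 CPM across DSS 1, 2 and 3 and at 924, 10453 and 8702 CPM across DSS+BV 1, 2 and 3. Car1 was high in the same libraries as Lgr5, a likeness for which it was picked. Its log2 fold change was 2.84, with an adjusted p of 0.313 with edgeR (0.0404 without DSS+BV 1) and 0.00272 with DESeq2. The other genes closest to Lgr5 were Mal (0.376), Hoxb8 (0.471), Cpn1 (0.484) and Amn (0.507). Hoxb8, a homeobox gene of body position, was at 0.539, 0.808 and 0.582 CPM across the DSS group and at 0.528, 11.5 and 16.8 CPM across DSS+BV 1, 2 and 3. DSS+BV 2 and DSS+BV 3 also had low B and T cell levels (12.6 and 16.6 CPM summed), as did DSS 2 (17.8 CPM), where Lgr5 was low. Only DSS+BV 3 had a summed distal Hox level near 0. Hoxa13 alone was at 15.1, 21.0 and 11.1 CPM across DSS 1, 2 and 3 and at 15.6, 4.46 and 0.190 CPM across DSS+BV 1, 2 and 3. It was thus lowest in the libraries where Lgr5 was high. Hoxb13, Hoxd12 and Hoxd13 were instead lower in DSS 2 than in DSS+BV 2. The part of colon position in the Lgr5 difference was not tested. Ascl2 was the 140th closest of 14578 genes to Lgr5 (1.04), and no other member was closer.

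The pattern closest to Axin2 was that of Mcm7, a subunit of the replicative helicase, at a distance of 0.106. Mcm7 was at 112.9, 36.1 and 38.6 CPM across DSS 1, 2 and 3 and at 60.8, 73.9 and 92.5 CPM across DSS+BV 1, 2 and 3. Next came Mybl2 (0.159), a transcription factor of the cell cycle, Cdt1 (0.161), which licenses replication origins, Mcm3 (0.167), another helicase subunit, and Fen1 (0.172), a replication nuclease. Rnf43 was the 19th closest of 14578 genes to Axin2 (0.218). Summed CPM of the 12 genes of the proliferation list, none of which was among these, were 1693, 549 and 433 across DSS 1, 2 and 3 and 915, 907 and 1092 across DSS+BV 1, 2 and 3. This level, like that of Axin2, was highest in DSS 1 and low in DSS 2 and DSS 3. Its relation to Axin2 was not tested. Of the 12 proliferation genes, edgeR and DESeq2 called 0, none had an unadjusted p under 0.05 with edgeR, and the median log2 fold change was 0.09, with Mcm6 at 0.33, Mcm2 at 0.38 and Pcna at 0.26. Ephb2 and Znrf3 were also close (0.132), Ephb2 being the 88th closest gene to Znrf3.

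**Figure D4:**
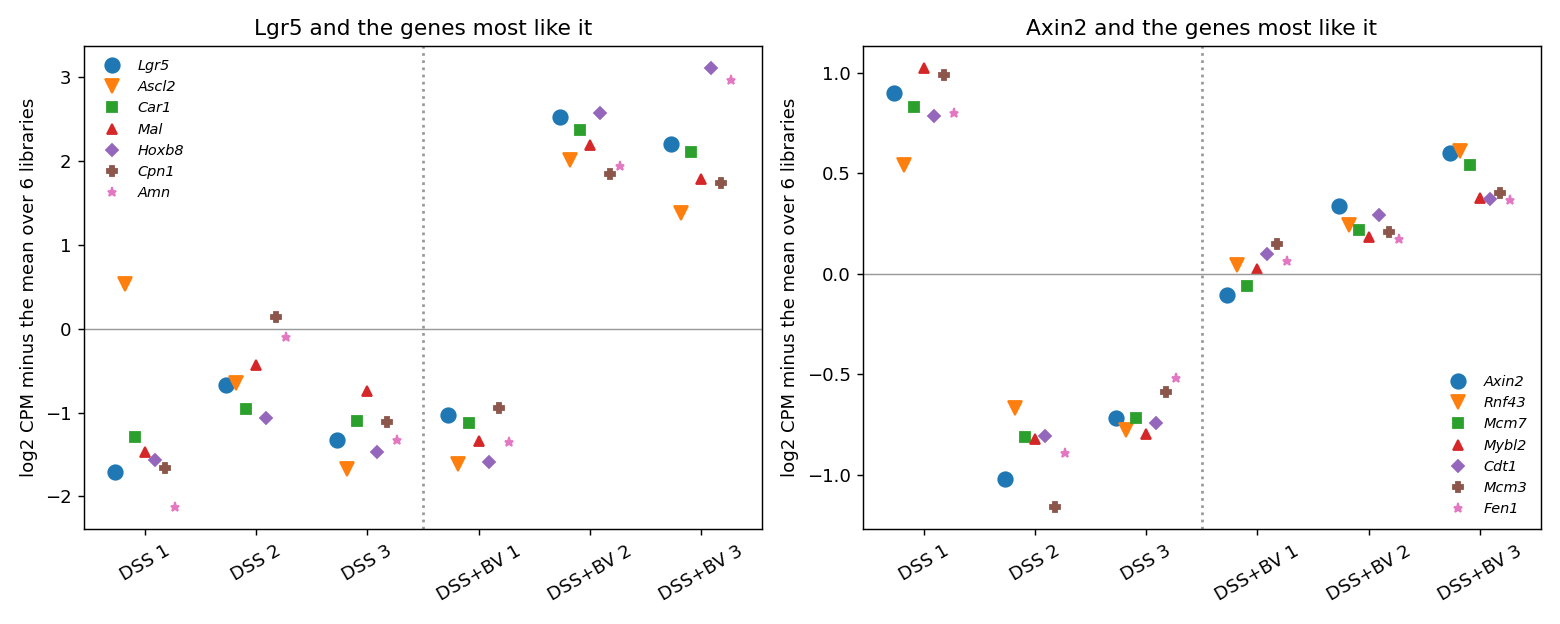
The vertical axes give log2 CPM minus the gene's mean over the 6 libraries, and the horizontal axes the libraries, with a dotted line between the groups. The left panel shows Lgr5, Ascl2 and the 5 genes closest to Lgr5, and the right panel Axin2, Rnf43 and the 5 genes closest to Axin2. In the left panel DSS+BV 2 and DSS+BV 3 are high, and in the right panel DSS 2 and DSS 3 are lowest and DSS 1 is highest for all genes except Rnf43, which is highest in DSS+BV 3.

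Promoter sequences of 6 members were found in RefSeq (GRCm38.p6), with 250 bases before and 50 bases from the transcription start on. Those of Ascl2, Axin2 and Rnf43 are shown because these Wnt targets had the patterns described above. Each is written 5′ to 3′ on the strand of the gene, and the capitals mark the bases from the start on. The windows are chr7:142969215-142969514 (minus strand) for Ascl2, chr11:108920099-108920398 (plus strand) for Axin2 and chr11:87662837-87663136 (plus strand) for Rnf43, the first of the 2 starts listed for that gene.
Ascl2: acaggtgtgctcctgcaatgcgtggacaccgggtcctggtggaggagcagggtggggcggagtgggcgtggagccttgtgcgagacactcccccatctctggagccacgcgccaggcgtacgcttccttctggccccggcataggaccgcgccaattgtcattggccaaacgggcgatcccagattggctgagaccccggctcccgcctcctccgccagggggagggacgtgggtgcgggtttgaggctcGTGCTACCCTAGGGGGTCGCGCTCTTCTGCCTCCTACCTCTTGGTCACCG
Axin2: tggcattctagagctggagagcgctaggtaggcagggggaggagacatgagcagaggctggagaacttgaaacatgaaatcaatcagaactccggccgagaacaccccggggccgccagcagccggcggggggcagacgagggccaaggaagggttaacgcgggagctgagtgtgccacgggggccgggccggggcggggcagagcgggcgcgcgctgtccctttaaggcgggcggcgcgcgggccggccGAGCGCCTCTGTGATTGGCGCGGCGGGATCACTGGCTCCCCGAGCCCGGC
Rnf43: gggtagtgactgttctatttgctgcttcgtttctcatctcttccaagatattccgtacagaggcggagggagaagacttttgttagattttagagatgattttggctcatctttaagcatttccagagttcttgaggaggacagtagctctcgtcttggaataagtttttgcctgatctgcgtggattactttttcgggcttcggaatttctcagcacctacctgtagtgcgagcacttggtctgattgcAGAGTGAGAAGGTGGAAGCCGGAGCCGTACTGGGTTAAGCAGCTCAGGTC
The windows were 67%, 70% and 46.7% G or C. A search on both strands for CTTTG followed by AA, AT, TA or TT, words bound by TCF factors that cannot overlap each other on a strand, found 0 matches in the 6 members. Of all 32851 promoters of the same length, 16.9% held at least 1. The search covers only these letters in these windows.

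Since the epithelial markers themselves differed between the groups, each member was also expressed relative to the mean log2 CPM of 12 epithelial genes, among them Epcam, Cdh1 and Vil1. Of these 12, edgeR called 0, and 4 were higher and 0 lower at an unadjusted p under 0.05. All 12 had log2 fold changes above 0, with a median of 0.41, and 6 were higher in every DSS+BV library than in every DSS library. Krt18 had a log2 fold change of 0.71, Vil1 of 0.48 and Krt8 of 0.64. On this relative log2 scale, the difference between the groups was 2.04 for Lgr5 (exact two-sided permutation test, p = 0.3) and 0.75 for Ascl2 (p = 0.7 in the same exact test). It was 0.12 for Axin2, 0.16 for Rnf43, -0.08 for Znrf3, -0.02 for Sox9 and 0.00128 for Ephb2 (exact permutation p between 0.8 and 1). Over the 10 members its median was -0.00968. Relative Lrig1 was -1.97, -2.16 and -2.24 across DSS 1, 2 and 3 and -2.74, -2.84 and -2.76 across DSS+BV 1, 2 and 3. Here the groups did not overlap, and the difference was -0.66 (exact permutation p = 0.1, the smallest that 3 against 3 libraries allow). Lrig1 itself had a log2 fold change of -0.22 with groups that overlapped, and the relative value also carries the rise of the epithelial genes. The share of all tested genes whose groups separate on this scale was not counted. The relative difference of Smoc2 was -0.70 (exact permutation p = 0.4). Olfm4, whose relative value is largely set by the prior count, is given no difference. Lgr5 and Ascl2 had 1 to 12 expected counts in the DSS group and DSS+BV 1, so the prior count also shrinks their differences on this scale. These differences also carry the rise of the epithelial genes, and they compare means of log values, unlike the edgeR fold changes. The part of each in the gap to the edgeR fold changes was not tested. The p-values are not adjusted, and after adjustment none can be below 0.1.

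**Figure D5:**
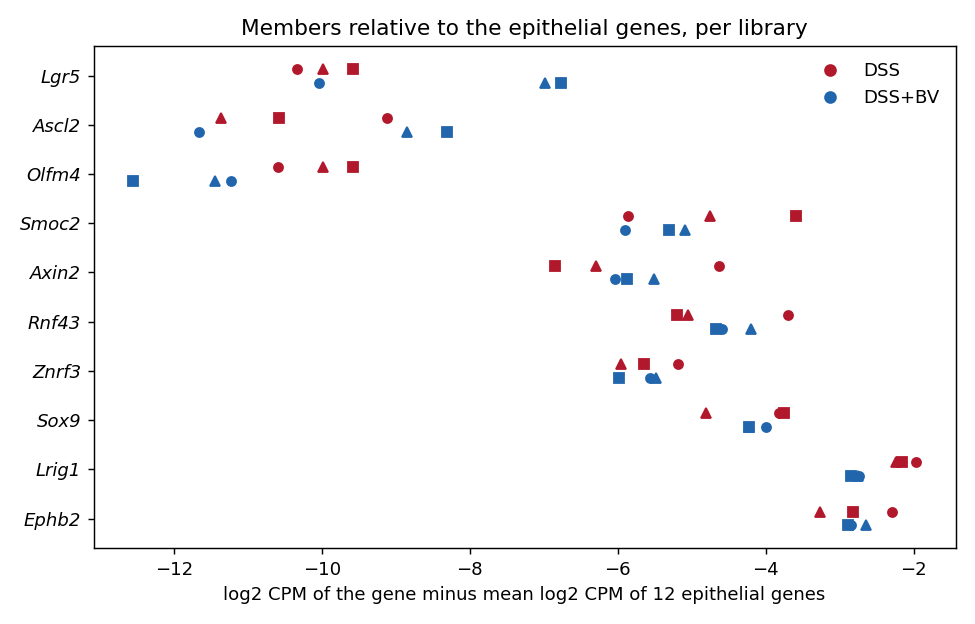
The horizontal axis gives log2 CPM of each member minus the mean log2 CPM of 12 epithelial genes in the same library. Points are libraries, with replicates 1, 2 and 3 as circles, squares and triangles. Values of the groups are interleaved for Axin2, Rnf43, Znrf3, Sox9 and Ephb2. Those of Lrig1 are lower in every DSS+BV library than in every DSS library. The epithelial mean that is subtracted is itself higher in every DSS+BV library. The share of all tested genes that separate on this scale was not counted. The values of Olfm4 rest on 0 to 10 counts a library and are largely set by the prior count. The prior count also bears on the low values of Lgr5 and Ascl2.

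Of 25 other crypt and Wnt target genes, 23 were tested, and edgeR called 0, with 3 lower and 2 higher at an unadjusted p under 0.05. Their median log2 fold change was 0.08, with 15 above 0 and 8 below. The smallest p-values were those of Nkd1, Apcdd1 and Mex3a. Nkd1, a feedback inhibitor of Wnt signalling, was at 20.7, 19.9 and 24.7 CPM across the DSS group and 12.5, 13.9 and 12.4 CPM across the DSS+BV group. The fold change on the log2 scale was -0.75, with an adjusted p of 0.239 with edgeR and 0.0141 with DESeq2, where it did not reach the fold threshold. Apcdd1, another Wnt inhibitor, was at 9.64, 6.47 and 11.5 CPM and at 4.22, 4.01 and 2.91 CPM. Its log2 fold change was -1.31 (adjusted p = 0.245 with edgeR and 0.0128 with DESeq2, which called it). Mex3a, an RNA-binding protein of slowly cycling crypt cells, was at 2.40, 1.87 and 2.1 CPM and at 2.90, 4.65 and 5.82 CPM, a log2 fold change of 1.07 (edgeR adjusted p = 0.334). For these 3 genes the groups did not overlap, with Nkd1 and Apcdd1 lower and Mex3a higher in every DSS+BV library. The groups overlapped for each other tested gene of the list.

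Of 23 genes for R-spondins, Wnt receptors and the relay of the signal, 20 were tested, and edgeR called 0, with 2 lower and 0 higher at an unadjusted p under 0.05. The median log2 fold change was 0.18. The R-spondins Rspo1 and Rspo3, ligands of Lgr5 made by stromal cells, were the 2 that DESeq2 called, both lower. Rspo3 was at 13.1, 18.5 and 27.4 CPM across DSS 1, 2 and 3 and at 8.71, 6.24 and 4.8 CPM across DSS+BV 1, 2 and 3, so every DSS+BV library was below every DSS library. Its log2 fold change was -1.58 with a standard error of 0.353 (adjusted p = 0.239 with edgeR and 0.00424 with DESeq2). Rspo1 was at 2.81, 2.74 and 2.39 CPM and at 0.989, 1.08 and 0.695 CPM, a log2 fold change of -1.51 with a standard error of 0.323 (adjusted p = 0.219 with edgeR and 0.0266 with DESeq2). Dvl3, which carries the signal from the receptor, had a log2 fold change of 0.34 (edgeR adjusted p = 0.399), with all DSS+BV libraries above all DSS libraries. Fibroblast genes were lower too. The summed CPM of 8 such genes was 2102 to 2517 in the DSS group and 1018 to 1470 in the DSS+BV group, with a median log2 fold change of -0.76, and their part in the R-spondin values was not tested. Of these 8, edgeR called 0 and DESeq2 called 2 lower, and 6 were lower at an unadjusted edgeR p under 0.05, among them Col1a1 (-1.32), Col1a2 (-0.97) and Pdgfrb (-0.68).

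Markers of other cells of the colon wall were also compared. Of 9 tested neutrophil genes, edgeR called 5 as lower in the DSS+BV group and DESeq2 called 8. The 5 were S100a8 (log2 fold change -4.42, edgeR adjusted p = 0.0127), S100a9 (-4.19), Mmp8 (-4.32), Cxcr2 (-3.61) and Retnlg (-3.24, edgeR adjusted p = 0.0293). None of the 5 was called with the replicate block or without DSS 1, DSS 3, DSS+BV 2 or DSS+BV 3, although the log2 fold change of S100a8, for one, stayed between -4.55 and -4.27 with a library left out. In 7 of the 9 genes every DSS+BV library was below every DSS library. The summed CPM of the 10 listed neutrophil genes was 203.7 to 1049 in the DSS group and 30.4 to 326.6 in the DSS+BV group, ranges that overlapped. Ly6g alone made 302.6 of the 326.6 CPM in DSS+BV 1 and 854.5 of the 1049 CPM in DSS 3. The mean log2 CPM of the list, in which each gene counts alike, was 2.84 to 3.93 in the DSS group and 0.206 to 1.08 in the DSS+BV group and did not overlap. Camp was at 0 in DSS 1, DSS+BV 2 and DSS+BV 3. The 8 smooth muscle genes had summed CPM of 3333 to 4133 and 2397 to 4018, with log2 fold changes of 0.50 for Actg2, -0.38 for Lmod1 and -0.44 for Tagln. The 4 genes of enteric glia had summed CPM of 30.1 to 67.3 in the DSS group and 17.2 to 22.8 in the DSS+BV group, and DESeq2 called Gfap lower (edgeR log2 fold change -1.55, adjusted p = 0.246). Sox10 (log2 fold change -1.04) was also lower in every DSS+BV library than in every DSS library. Among the 7 B and T cell genes, Cd79b had a log2 fold change of -1.14, Cd79a of -0.94 and Cd3g of -0.22. EdgeR called 0 of the smooth muscle, glia, lymphocyte and distal Hox genes, of which 3 were lower at an unadjusted p under 0.05, all in glia. DESeq2 called 1 of them.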

How the data were processed

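RNA from colon tissue of 3 DSS and 3 DSS+BV samples was sequenced on a DNBSEQ instrument, from mRNA libraries. The values that the authors deposited are expected counts of RSEM, not scaled to library size. Per the labels, HISAT2 2.1.0, Bowtie2 2.2.5 and RSEM 1.2.8 were used with the genome build GRCm38.p6. The annotation, and whether strand was used in counting, are not given in the sources used here. RSEM divides reads that match several genes, and 1573 genes had a value that was not whole.

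Expected counts were rounded, genes were kept with filterByExpr (minimum count 10, minimum total 15), and edgeR 4.0.16 (R 4.3.3) was used for quasi-likelihood tests between the groups, with TMM factors and Benjamini-Hochberg adjustment over 14579 genes. The biological coefficient of variation was 32.1%. The study used DESeq2 (1.42.0 here), which was run as an alternative on the same rounded counts. Log2 CPM used a prior count of 2. Transcript lengths and exon overlaps came from the GENCODE annotation and promoters from RefSeq, both on GRCm38.p6. The 10 members and the 13 other lists, with 137 entries, were chosen with earlier results of these data known. Named genes are all members, of each other list the called genes and up to 3 genes with the smallest edgeR p-values, and the 5 genes closest to Lgr5 and to Axin2. A gene that this rule names is not reported here. Libraries of a group differed by more than sampling noise (chi-square per degree of freedom 42.7 to 118.1), so none was counted as a repeat. The test was checked on simulated counts first, with 150 changed genes for each fold size. Of changes of 2-fold, which lie at the fold threshold, edgeR called 11.3% and DESeq2 33.3%. Of changes of 4-fold, edgeR called 78.7% and DESeq2 89.3%. Plots used matplotlib 3.10.9 and Python 3.11.15.

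Alternatives were DESeq2, RLE and upper-quartile factors, library totals, other filters, a replicate block, a robust fit, other thresholds, other reference lists, another prior count, coding lengths and each library left out in turn.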

Additional observations from a re-analysis of the deposited data

How the results depend on the processing

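The number of members called was 0 in every edgeR alternative and 1 with DESeq2. In the other lists, 5 genes were called with edgeR, 16 with DESeq2, and 0 to 4 with 1 library left out (0 without DSS 1, DSS 3, DSS+BV 2 or DSS+BV 3, and 1 without DSS 2). Over all genes, edgeR called 13 lower, DESeq2 280 lower and 45 higher, and edgeR 0 to 3 lower and 0 to 4 higher with 1 library left out. Upper-quartile factors raised the number of members whose groups did not overlap from 1 (Olfm4) to 2, with Lrig1 added. The share over all tested genes was not counted with those factors, which moved the median log2 fold change of all tested genes from -0.01 to -0.06. The median level per kilobase over the members was 3.86 CPM with transcript lengths and 7.79 CPM with coding lengths, which are shorter. With 1 library left out, the direction changed for Smoc2 (log2 fold change -0.97 to 0.36), Egf (-0.014 to 1.76), Cd3g (-0.46 to 0.24), Hoxd13 (-1.41 to 0.55) and Hoxd12 (-2.0 to 0.32), none of them called. Hoxd13 was 0.55 without DSS 1 and 0.03 without DSS+BV 3, and Hoxd12 was 0.32 and 0.29. Lgr5 and Ascl2 were not tested where a CPM of 1 was needed in 3 libraries. Among results other than these single genes and counts, the median of the members relative to the epithelial genes ran from -0.25 (without DSS 3) to 0.19 (without DSS 1).

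The main test did not take the replicate numbers as pairs. Deviations from the group means correlated at 0.267, 0.255 and -0.296 for numbers 1, 2 and 3 (across 14579 genes, which are not independent). These values cannot decide whether samples were paired, since the 3 deviations of a group sum to 0 for each gene. With the replicate block, edgeR called 0 genes in all, 0 members and 0 genes of the other lists. The log2 fold change of Lgr5 was then 3.01 (edgeR adjusted p = 0.351), and the median of the members was 0.44.

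Depth limits Lgr5, Ascl2 and Olfm4 most, with 0 to 12 expected counts in most libraries.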

Other observations

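Other epithelial groups were described in the same way. Of 9 genes of differentiated colonocytes, edgeR called 0 (1 higher at an unadjusted p under 0.05) and DESeq2 called 1, Car1. Their median log2 fold change was 0.35. Car4, a carbonic anhydrase of the colon surface like Car1, had a log2 fold change of -1.10 and was at 437, 537 and 1736 CPM across DSS 1, 2 and 3 and at 611, 428 and 223 CPM across DSS+BV 1, 2 and 3. It thus did not follow the libraries as Car1 did. Cdhr5, a protein of the brush border, had a log2 fold change of 0.43.

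Of 5 genes of the secretory cells that lie beside colon stem cells, edgeR and DESeq2 called 0, with 1 higher at an unadjusted edgeR p under 0.05. This was Reg4, their defining marker, for which DESeq2 gave no adjusted p, at 59.6, 17.2 and 11.2 CPM across DSS 1, 2 and 3 and at 54.5, 495.2 and 40.8 CPM across DSS+BV 1, 2 and 3. Its log2 fold change of 2.75 rested on DSS+BV 2 and was 0.70 without it. Egf had a log2 fold change of 0.54 and the Notch ligand Dll1 of 0.12. Of 9 tested genes of the fetal-like epithelium that appears during repair, edgeR called 0 (1 lower at an unadjusted p under 0.05) and DESeq2 called 1, Il33, as lower. Il33, an alarmin that stromal cells make too, was at 50.1, 50.4 and 62.5 CPM across DSS 1, 2 and 3 and at 15.5, 23.9 and 11.9 CPM across DSS+BV 1, 2 and 3. Its log2 fold change was -1.67 (adjusted p = 0.144 with edgeR and 2.52e-05 with DESeq2). Gja1 had a log2 fold change of -0.44 (edgeR adjusted p = 0.470) and Msln of -1.59 (edgeR adjusted p = 0.497). The groups overlapped for both, and Msln was at 3.53 CPM or less in every library. The median log2 fold change of the fetal-like list was -0.44, with 7 genes below 0 and 2 above. Of the 4 distal Hox genes, Hoxa13 had a log2 fold change of -1.22, Hoxd13 of -0.56 and Hoxd12 of -0.30, and all 4 varied from 0.190 CPM or less in DSS+BV 3 to their highest value in other libraries.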
